A study of Mus musculus with 8 samples.

Results

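The Prss serine proteases, together with acrosin (Acr) and Tmprss12, were followed across juvenile mouse testes with and without Ip6k1, which encodes an inositol hexakisphosphate kinase. The set was taken by gene name: every non-control probe of the array whose gene name begins with Prss and a digit, or is Acr or Tmprss12. This gave 40 genes on 48 probes. Of these, 35 genes were measurable and were tested among 26586 genes.

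The 4 groups were Ip6k1-/- testes at 26 days postpartum (dpp), Ip6k1+/+ (wild type) testes at 26 dpp, Ip6k1-/- testes at 17 dpp and wild type testes at 17 dpp. Each group held 2 arrays, described by the submitters as biological replicates, with 1 RNA sample per array. All mice were C57BL/6, and knockout and wild type animals were littermates from crosses of heterozygotes. Whole testes were used, so every value is an average over germ cells and somatic cells, and fewer cells of a type cannot be told apart from less RNA per cell. The exons removed by the Ip6k1 allele, the cells in which it acts and any pooling of animals are not stated in the labels.

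Trypsin-like serine proteases are made as inactive precursors and cut proteins after basic residues. Acrosin, the best known of them in sperm, is stored as proacrosin in the acrosome, the secretory vesicle that round spermatids build over the nucleus and sperm release at fertilisation. Many Prss genes are expressed mainly in testis, where some encode membrane-anchored proteases of meiotic cells and spermatids and others, such as Prss37, lack a complete catalytic triad. In the first wave of mouse spermatogenesis pachytene spermatocytes appear before round spermatids, so testes of increasing juvenile age add these cells in order.

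Levels are given as log2 of the processed array signal relative to the array's 75th percentile, so 0 is the signal of a gene brighter than most on the same array. They compare arrays for 1 gene and not 1 gene with another. The Ip6k1 probe read 1.41 and 1.30 in knockout testes and 2.79 and 2.77 in wild type testes at 26 dpp, and 1.36 and 1.49 in knockout testes and 2.19 and 2.30 in wild type testes at 17 dpp. The knockout arrays were lower at both ages with no overlap, but the adjusted p was 0.527 at 26 dpp and 1 at 17 dpp (limma, Benjamini-Hochberg adjustment over all genes), and whether the probe lies in the deleted part is not given. Knockout replicate 2 at 26 dpp differed from its group: its correlation across probes was 0.946 to 0.962 with arrays of 17 dpp, and 0.908 to 0.926 with the other arrays of its own age. The median of 10 markers of round and elongating spermatids was -5.15 on that array, against 3.91 on knockout replicate 1 and 3.55 and 4.52 in wild type testes of that age, whereas the median of 10 pachytene markers was 4.67 there and 4.94 to 5.31 on those 3 arrays. Both wild type arrays at 17 dpp carried epididymal transcripts, with a median of -0.23 and 2.32 over 8 markers against -7.40 to -6.38 on the other 6 arrays; their summed signal was 4.71 and 6.74 in log2, against -1.75 to -0.26. Counts of calls for age in each genotype and for knockout at 26 dpp are given with and without knockout replicate 2 at 26 dpp, as are some single genes. Other tests use all 8 arrays unless stated. The spread is shared over the 4 groups, so the SE and p of every contrast, also in wild type, include the scatter of that array.

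The probes of the members with a known role in sperm, and of Prss39, Prss52 and Prss54, are shown first, because each value below is the signal of 1 such sequence. They are the sense-strand sequences in the deposited scanner files, with mm9 coordinates from the same files. Capitals mark a polyadenylation hexamer (AATAAA or ATTAAA), where the probe holds one, and no exon or UTR was assigned to a probe because no genome annotation of that build was used here. The Acr probe lies at chr15:89404729-89404788, Tmprss12 at chr15:100123370-100123429, Prss21 at chr17:24009860-24009919, Prss37 at chr6:40464853-40464912, Prss39 at chr1:34559766-34559825, Prss52 at chr14:64732527-64732586, Prss54 at chr8:98083206-98083265, Prss55 at chr14:64694280-64694339 and Prss50 at chr9:110766789-110766848.
Acr: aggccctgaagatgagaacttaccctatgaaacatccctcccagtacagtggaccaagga
Tmprss12: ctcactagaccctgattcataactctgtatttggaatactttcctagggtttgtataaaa
Prss21: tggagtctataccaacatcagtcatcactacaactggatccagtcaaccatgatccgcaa
Prss37: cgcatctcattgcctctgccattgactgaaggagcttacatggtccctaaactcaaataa
Prss39: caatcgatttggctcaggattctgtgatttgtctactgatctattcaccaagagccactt
Prss52: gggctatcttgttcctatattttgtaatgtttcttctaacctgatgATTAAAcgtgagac
Prss54: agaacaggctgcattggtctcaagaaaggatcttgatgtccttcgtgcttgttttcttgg
Prss55: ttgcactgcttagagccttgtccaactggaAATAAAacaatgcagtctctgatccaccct
Prss50: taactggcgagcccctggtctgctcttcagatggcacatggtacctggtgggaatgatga

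Acr, Tmprss12 and many of the testis proteases were far higher at 26 than at 17 dpp in wild type testes. By limma, 19 of the 35 tested members were higher at 26 dpp and 5 were lower at an adjusted p under 0.05, against a background of 18.9% of all 26586 genes called higher and 26.1% called lower. The median difference of the members was 2.97, against -0.46 over all genes, but it was 1.1 and 1.13 with normexp background correction, 1.12 with no filter and -0.11 over the 20 members well above background on all arrays. These counts describe the members that could be measured: 11 of the 19 passed the detection filter only through a 26 dpp group, so that a difference was built into their selection. Among the 21 members detected in groups of both ages, 8 were higher and 5 lower, against 15.3% and 27.3% of the 22745 genes so detected. With no filter 17 of all 40 were higher and 5 lower, against 13.6% and 17.3% of 34916 genes. The number of calls depends on the wild type arrays: 24 members in all were called with 8 arrays, and fewer with any 1 wild type array left out. Shares over all genes in those fits are not given here, so the drop says nothing particular about the members. Without the outlying knockout array the calls were 20 higher and 8 lower, with 25.4% and 43.7% of all genes called.

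**Figure D1:**
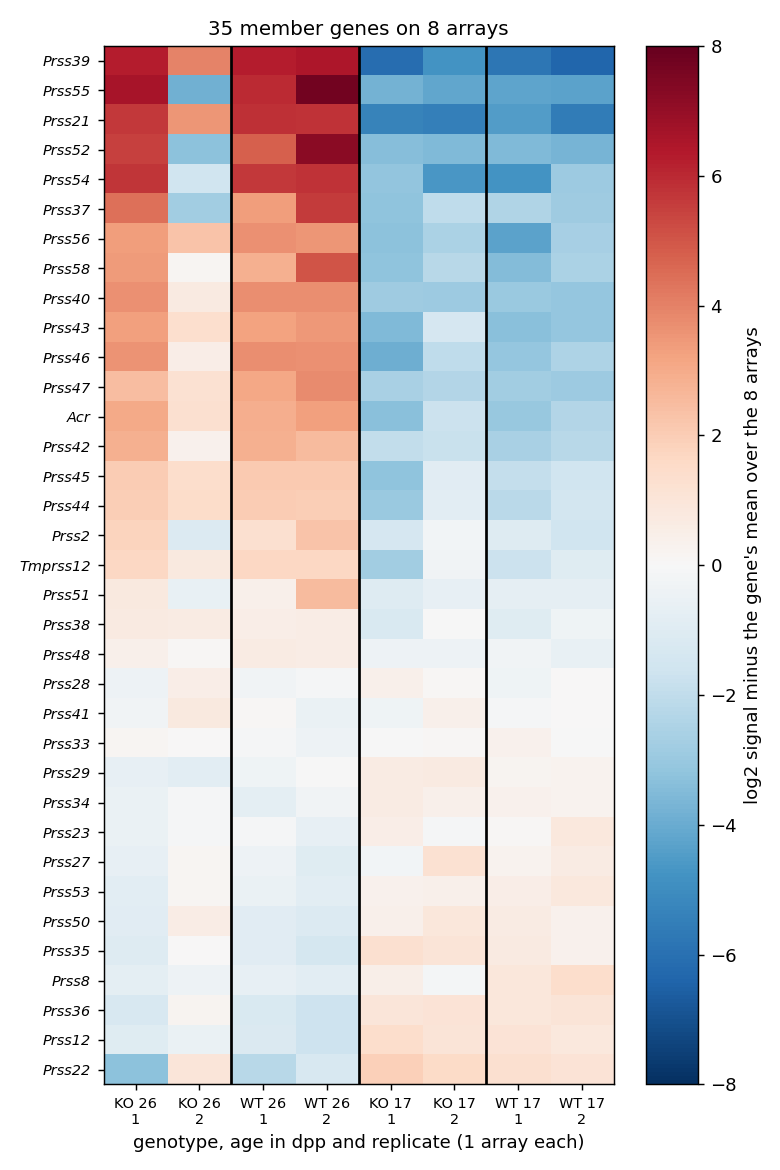
Each row is 1 of the 35 measurable genes and each column 1 array, with knockout (KO) left of wild type (WT) at each age in dpp. Colour is the log2 signal minus the gene's own mean over the 8 arrays, so it compares arrays within a row and not rows with each other; rows run from the largest to the smallest wild type difference between 26 and 17 dpp, and the second knockout column at 26 dpp differs from the other 26 dpp columns.

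Among members with a known role in sperm, Acr was measurable at both ages. Its level was 3.09 and 1.31 in knockout testes and 2.94 and 3.34 in wild type testes at 26 dpp, against -3.30 and -1.64 in knockout testes and -2.95 and -2.31 in wild type testes at 17 dpp. The 26 dpp arrays lay above all 17 dpp arrays, and the wild type difference was 5.77 ± 0.76 (SE, n = 2 arrays per group, limma adjusted p = 0.00785), a 54.7-fold rise. Tmprss12, a membrane-anchored protease that mouse sperm need to reach the oviduct, rose by 2.97 ± 0.81 on the log2 scale (SE, limma adjusted p = 0.0322). It read 3.06 and 2.22 in knockout testes and 3.04 and 3.05 in wild type testes at 26 dpp, and -1.35 and 1.12 in knockout testes and -0.30 and 0.46 in wild type testes at 17 dpp. The ages did not overlap, and the spread was widest between the knockout arrays at 17 dpp.

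Prss21 encodes testisin, a protease held on the sperm surface by a lipid anchor. It was 3.31 and 1.19 in knockout testes and 3.50 and 3.39 in wild type testes at 26 dpp, and -7.70 and -7.84 in knockout testes and -6.83 and -7.94 in wild type testes at 17 dpp, where no array had it well above background. The wild type rise was at least 568-fold (limma adjusted p = 0.00337); such bounds set the bright group against the dimmest signal that counts as well above background on each array of the dim group. Prss37, which mouse sperm need for maturation of the surface protein ADAM3 and for entry into the oviduct, was 4.19 and -2.98 in knockout testes and 3.17 and 5.41 in wild type testes at 26 dpp, against -3.41 and -2.23 in knockout testes and -2.58 and -3.05 in wild type testes at 17 dpp. Its wild type difference was 7.10 ± 2.20 (SE, limma adjusted p = 0.043). Knockout replicate 2 at 26 dpp lay inside the 17 dpp range, and the 3 other 26 dpp arrays lay far above it.

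Prss55, a further lipid-anchored protease that sperm need for migration into the oviduct, behaved like Prss37 on that array. It read 2.89 and -7.50 in knockout testes and 2.27 and 4.06 in wild type testes at 26 dpp, and -7.46 and -7.86 in knockout testes and -7.88 and -7.99 in wild type testes at 17 dpp. The gene was not well above background on knockout replicate 2 at 26 dpp or on any 17 dpp array, and its wild type rise was at least 468-fold (limma adjusted p = 0.0326). Prss50, a testis protein with a threonine in the place of the catalytic serine, ran the other way. It was 1.65 and 3.15 in knockout testes and 1.65 and 1.49 in wild type testes at 26 dpp, against 2.98 and 3.44 in knockout testes and 3.21 and 2.88 in wild type testes at 17 dpp. The wild type difference was -1.48 ± 0.51 (SE, limma adjusted p = 0.0558), and it passed the threshold without knockout replicate 2 at 26 dpp (adjusted p = 0.00334); that replicate lay among the 17 dpp arrays. The second Prss50 probe gave the same order of arrays by age, at 0.71 and 2.22 in knockout testes and 0.78 and 0.59 in wild type testes at 26 dpp, and 2.02 and 2.45 in knockout testes and 2.26 and 1.88 in wild type testes at 17 dpp.

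Prss39 and Prss40, the testicular serine proteases TESP1 and TESP2 of the mouse acrosome, lie next to each other on chromosome 1 (mm9). Prss39 was 4.63 and 2.31 in knockout testes and 4.63 and 4.85 in wild type testes at 26 dpp. It was -7.72 and -6.40 in knockout testes and -7.42 and -7.99 in wild type testes at 17 dpp, and was well above background on no 17 dpp array. Its rise of at least 1390-fold in wild type (limma adjusted p = 0.00337) was the largest bound among the members. Prss40 was -1.03 and -4.00 in knockout testes and -0.97 and -0.95 in wild type testes at 26 dpp, and -7.54 and -7.58 in knockout testes and -7.66 and -7.79 in wild type testes at 17 dpp. That is a rise of at least 26.8-fold in wild type (limma adjusted p = 0.00779), and a second Prss40 probe lay between -1.47 and -1.14 on the 3 agreeing 26 dpp arrays and at -7.71 to -7.41 at 17 dpp.

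Prss55, Prss51 and Prss52 lie within chr14:64694280-64732586 (mm9) and shared an array pattern. Prss52 was 1.20 and -7.51 in knockout testes and 0.52 and 2.98 in wild type testes at 26 dpp, and -7.69 and -7.77 in knockout testes and -7.81 and -7.96 in wild type testes at 17 dpp. Its wild type rise was at least 175-fold (limma adjusted p = 0.0319), and it was not well above background on knockout replicate 2 at 26 dpp or on any 17 dpp array. Prss51 read -3.31 and -4.67 in knockout testes and -3.68 and -1.57 in wild type testes at 26 dpp, against -5.15 and -4.73 in knockout testes and -4.81 and -4.80 in wild type testes at 17 dpp; its difference of 2.18 ± 0.76 (SE) missed the threshold (limma adjusted p = 0.0583), and passed it without knockout replicate 2 at 26 dpp (adjusted p = 0.0361).

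Of the remaining large risers, Prss54, which in mouse takes part in shaping the acrosome, was 2.56 and -4.78 in knockout testes and 2.47 and 2.61 in wild type testes at 26 dpp, and -6.32 and -7.83 in knockout testes and -7.96 and -6.10 in wild type testes at 17 dpp. It rose at least 304-fold in wild type (limma adjusted p = 0.0228), with knockout replicate 2 between the ages. Prss56, known best for its part in eye growth, was -0.13 and -1.17 in knockout testes and 0.18 and 0.09 in wild type testes at 26 dpp, against -6.74 and -5.99 in knockout testes and -7.70 and -6.14 in wild type testes at 17 dpp. All 26 dpp arrays lay above all 17 dpp arrays, and the wild type rise was at least 57.4-fold (limma adjusted p = 0.00525). Prss58, a trypsin-like gene near Prss37 on chromosome 6, was 0.14 and -3.11 in knockout testes and -0.38 and 1.76 in wild type testes at 26 dpp, and -6.50 and -5.46 in knockout testes and -6.72 and -5.78 in wild type testes at 17 dpp. Its rise was at least 84-fold (limma adjusted p = 0.0121), and the wild type replicates at 26 dpp differed from each other by 2.14. Prss47 was -2.58 and -3.83 in knockout testes and -2.02 and -1.30 in wild type testes at 26 dpp, and -7.69 and -7.41 in knockout testes and -7.85 and -7.96 in wild type testes at 17 dpp, a rise of at least 16.5-fold in wild type (limma adjusted p = 0.00407). Prss48 rose by 1.04 ± 0.24 on the log2 scale (SE, limma adjusted p = 0.0226). Prss2, a pancreatic trypsinogen whose probe may also bind near-identical trypsinogen copies, passed at a low level, with a rise of at least 2.09-fold (limma adjusted p = 0.0429). Of 5 measurable exocrine pancreas markers, 1 (Amy2a5) was called higher and 0 lower. Ctrb1, Pnlip, Cel and Clps were not called, and Ctrb1 stayed between -3.23 and -2.75 on all 8 arrays.

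On chromosome 9 the members Prss42, Prss44, Prss43, Prss45, Prss46 and Prss50 lie in this order within chr9:110705801-110766848 (mm9), 2.75 Mb from the Ip6k1 probe. The first 5 rose between 17 and 26 dpp, and Prss50, the last in the row, had the negative difference given above. Prss42 was 0.67 and -1.82 in knockout testes and 0.66 and 0.37 in wild type testes at 26 dpp, and -4.13 and -3.97 in knockout testes and -4.78 and -4.41 in wild type testes at 17 dpp. Prss43 was 0.47 and -1.49 in knockout testes and 0.41 and 0.66 in wild type testes at 26 dpp, and -6.38 and -4.19 in knockout testes and -6.13 and -5.91 in wild type testes at 17 dpp. Both encode testis proteases known from mouse germ cells, and in both all 26 dpp arrays lay above all 17 dpp arrays. The wild type rise was 5.10 ± 0.76 on the log2 scale for Prss42 (SE, limma adjusted p = 0.00916) and at least 75.7-fold for Prss43 (adjusted p = 0.008). Prss46 was 3.02 and -0.07 in knockout testes and 3.09 and 3.07 in wild type testes at 26 dpp, and -4.48 and -2.65 in knockout testes and -3.72 and -3.11 in wild type testes at 17 dpp, a wild type rise of 6.49 ± 1.07 (SE, limma adjusted p = 0.011). Prss44 rose by 3.82 ± 0.70 (SE, limma adjusted p = 0.0133) and Prss45 by 3.83 ± 0.74 (SE, adjusted p = 0.015) on the log2 scale. A second Prss44 probe stayed between -5.59 and -4.36 on all 8 arrays and did not follow the brighter one.

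**Figure D2:**
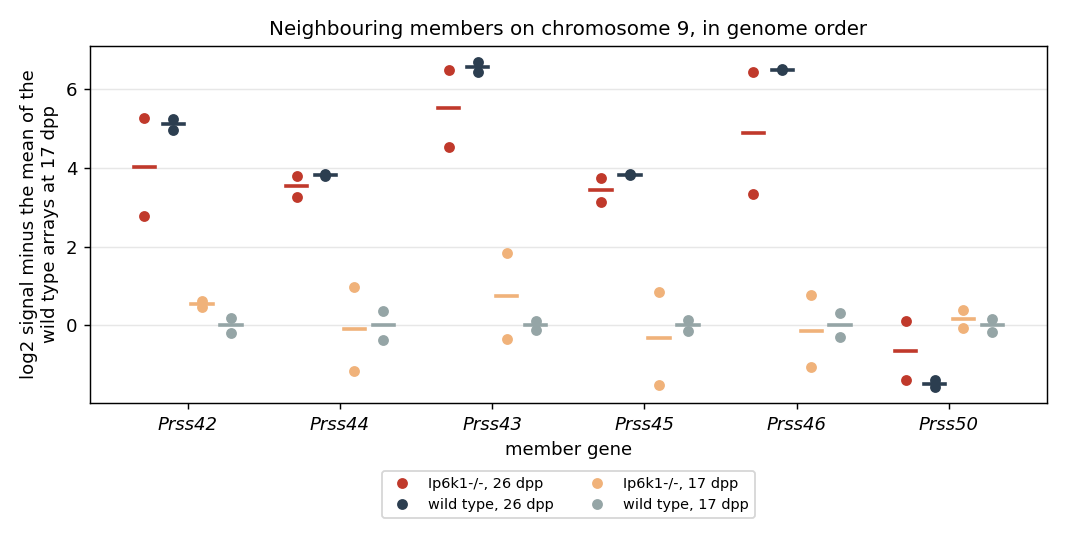
Points are single arrays and bars the mean of the 2 arrays of a group, for the 6 neighbouring genes in genome order; the vertical axis is the log2 signal minus the mean of the wild type arrays at 17 dpp. The first 5 genes lie above 0 at 26 dpp in both genotypes, while Prss50 lies below 0 in wild type and on knockout replicate 1 and near 0 on knockout replicate 2.

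Promoter windows were set beside these opposite directions for the genes of this row that RefSeq's table holds, which are Prss42, Prss45, Prss46 and Prss50. Each window (GRCm38.p6, plus strand) runs from 250 bases before to 50 bases after the annotated start, and 29 of the 40 members had one or more. The motifs searched on both strands were the cAMP response element TGACGTCA and its half-site TGACG, the TATA box TATAAA, the RFX half-site GTTGCC, the SOX motif ACAATG, the MYB motif TAACNG and the GC box GGGCGG; every full element also counts as a half-site. Capitals mark any match. The windows are chr9:110797935-110798234 for Prss42, chr9:110834338-110834637 for Prss45, chr9:110844256-110844555 for Prss46 and chr9:110857714-110858013 for Prss50.
Prss42: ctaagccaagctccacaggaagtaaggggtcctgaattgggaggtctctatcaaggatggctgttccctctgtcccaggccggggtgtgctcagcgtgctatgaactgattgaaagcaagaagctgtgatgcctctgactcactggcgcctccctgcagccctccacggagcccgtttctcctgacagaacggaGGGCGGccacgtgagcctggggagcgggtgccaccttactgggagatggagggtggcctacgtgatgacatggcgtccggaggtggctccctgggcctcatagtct
Prss45: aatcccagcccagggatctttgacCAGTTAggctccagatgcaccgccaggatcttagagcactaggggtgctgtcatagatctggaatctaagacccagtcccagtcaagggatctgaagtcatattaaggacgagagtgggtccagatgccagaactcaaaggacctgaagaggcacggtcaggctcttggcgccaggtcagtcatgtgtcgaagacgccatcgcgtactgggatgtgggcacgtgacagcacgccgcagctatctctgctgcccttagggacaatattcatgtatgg
Prss46: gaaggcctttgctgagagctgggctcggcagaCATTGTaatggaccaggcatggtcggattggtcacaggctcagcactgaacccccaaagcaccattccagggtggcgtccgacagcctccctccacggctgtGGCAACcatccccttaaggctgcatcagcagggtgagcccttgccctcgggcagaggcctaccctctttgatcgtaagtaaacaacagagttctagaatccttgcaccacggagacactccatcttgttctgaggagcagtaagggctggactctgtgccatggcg
Prss50: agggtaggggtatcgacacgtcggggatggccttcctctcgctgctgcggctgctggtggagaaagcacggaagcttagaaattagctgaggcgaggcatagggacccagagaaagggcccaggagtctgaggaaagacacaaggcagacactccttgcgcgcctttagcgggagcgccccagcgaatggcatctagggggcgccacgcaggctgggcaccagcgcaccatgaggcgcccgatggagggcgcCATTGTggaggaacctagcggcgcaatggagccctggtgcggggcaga

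The Prss42 window held a GC box at base -56 from the start, Prss45 a MYB match at -226, Prss46 a SOX match at -218 and an RFX match at -116, and Prss50 a SOX match at 2. No motif was common to the 3 risers. Over the 29 members, none held the full cAMP response element (1.79% of all 32851 windows did), 6 held its half-site (20.8% of windows), 4 the TATA box (13.6%), 3 the RFX half-site (12.5%), 7 the SOX motif (12.6%), 6 the MYB motif (23.3%) and 9 the GC box (35.7%). Genes with several windows were counted once if any window matched, so gene counts and window shares are not on the same base. The Prss50 window held 21 CpG sites and 64% G and C, against 9 to 12 sites and 54.3% to 60.7% in the 3 others and a median of 7 sites and 52.7% over all windows. A match is a run of letters and not a bound site, and no match says only that these letters are not in the window.

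The 5 members that fell in wild type testes were Prss8, Prss12, Prss35, Prss36 and Prss53. Prss8 encodes prostasin, an epithelial channel-activating protease, and fell by 1.93 on the log2 scale (SE 0.33, limma adjusted p = 0.0117). Its level was -4.51 and -4.11 in knockout testes and -4.37 and -4.52 in wild type testes at 26 dpp, and -3.22 and -3.83 in knockout testes and -2.77 and -2.27 in wild type testes at 17 dpp. The wild type arrays at 17 dpp, which were highest, are also those with epididymal transcripts, and the part of these in the result was not tested. A second Prss8 probe read -3.54 and -4.99 in knockout testes and -1.98 and -5.48 in wild type testes at 26 dpp, against -3.78 and -4.68 in knockout testes and -3.29 and -2.05 in wild type testes at 17 dpp, so that its wild type ages overlapped. Prss12, the neuronal protease neurotrypsin, was -0.58 and -0.11 in knockout testes and -0.77 and -1.28 in wild type testes at 26 dpp, and 1.79 and 1.42 in knockout testes and 1.48 and 1.25 in wild type testes at 17 dpp, a wild type fall of 2.39 (SE 0.31, limma adjusted p = 0.00785). Prss35, a secreted protease known from the mouse ovary, was -2.98 and -1.95 in knockout testes and -2.86 and -3.37 in wild type testes at 26 dpp, and -0.72 and -0.95 in knockout testes and -1.28 and -1.66 in wild type testes at 17 dpp. It was lower on every 26 dpp array, and fell by 1.65 in wild type (SE 0.41, limma adjusted p = 0.0265). Prss36 and Prss53, polyserases near Prss8 on chromosome 7, had wild type differences of -2.35 (limma adjusted p = 0.0183) and -1.38 (adjusted p = 0.0326).

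The remaining tested members missed the threshold for age in wild type. Prss38 had a difference of 1.20 (limma adjusted p = 0.0666) and Prss22, an epithelial tryptase, one of -2.96 (adjusted p = 0.0969, and 0.00145 without knockout replicate 2 at 26 dpp). Prss34, a mast cell and basophil protease, had a difference of -0.83 (limma adjusted p = 0.0583, and 0.0211 without that array), and the median of 4 mast cell markers lay between -3.80 and -1.72 over the 8 arrays. Prss23, Prss27, Prss28, Prss29, Prss33 and Prss41 had wild type differences between -1.15 and -0.03. Prss28 and Prss29 are the implantation serine proteases of the mouse uterus, and Prss29 was well above background on the 2 knockout arrays at 17 dpp only. Prss41, a testis protease of the chromosome 17 group, lay between -1.32 and 0.04 on all 8 arrays. Another 5 members did not reach the detection filter: the trypsinogen Prss1, the thymus protease Prss16, Prss30, Prss32 and the neutrophil protease Prss57.

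In knockout testes the same contrast gave fewer calls. By limma, 11 members were higher and 3 lower at 26 than at 17 dpp, against 7.62% of all genes called higher and 8.18% called lower, and the median difference of the members was 1.32 against -0.31 over all genes. All 11 (Acr, Prss21, Prss39, Prss40, Prss42, Prss43, Prss44, Prss45, Prss46, Prss47 and Prss56) were among the 19 called in wild type. The age contrasts of the 2 genotypes share no arrays, but they share 1 estimate of the spread and 1 detection filter. Prss21, Prss39, Prss40, Prss43, Prss47 and Prss56 passed that filter only through a 26 dpp group, so a difference was built into their selection. Prss29, called lower, passed it only through a 17 dpp group. Without knockout replicate 2 at 26 dpp, 19 members were higher and 8 lower, with 21.5% and 38.1% of all genes called, and the members' median was 2.54. This fit leaves 1 knockout array at 26 dpp, which is assumed to vary as the other groups do. Knockout age calls also depended on single arrays elsewhere, against 14 with all arrays. They were fewer without either knockout array at 17 dpp or any 1 wild type array. Shares over all genes in those fits are not given here. For Acr the knockout difference was 4.67 ± 0.76 (SE, limma adjusted p = 0.0225), and for Prss55, well above background on 1 of the 2 knockout arrays at 26 dpp and on none at 17 dpp, it was at least 9.32-fold (adjusted p = 0.249, and 0.000689 without replicate 2).

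The 2 knockout arrays at 26 dpp differed by gene and not by a common amount. Against the wild type mean at 26 dpp, knockout replicate 1 lay within 1 log2 unit for all 19 risers, from -0.93 for Prss47 to 0.16 for Prss42. Knockout replicate 2 had 16 of the 19 well above background. Of these, 4 lay less than 1 unit below the wild type mean, namely Prss48 (by 0.52), Prss44 (by 0.56), Prss45 (by 0.69) and Tmprss12 (by 0.83). Another 10 lay 1 to 4 units below it, among them Acr at -1.83, Prss21 at -2.25, Prss39 at -2.43 and Prss46 at -3.15. The others, Prss37 at -7.26 and Prss54 at -7.32, were lower still. Prss55, Prss52 and Prss2 were not well above background on that array, which puts Prss55 at -8.59 or lower, Prss52 at -7.17 or lower and Prss2 at -0.78 or lower. A list of 20 other acrosome genes had a median of -0.94 on that array, against 3.26 on knockout replicate 1 and 3.12 and 3.58 in wild type testes at 26 dpp. The spermatid marker median was low on this array and the pachytene median was not, as given above, but single pachytene markers were split. Pgk2 read 1.25 and Ccna1 1.07 there, against 4.69 to 5.18 and 3.48 to 3.69 on the other 26 dpp arrays. Sycp3 at 6.34 and Tex101 at 7.26 lay above the other 26 dpp arrays. They were the 2 of 10 pachytene markers with a positive knockout difference at 26 dpp. The part of cell composition in the gene order was not tested.

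**Figure D3:**
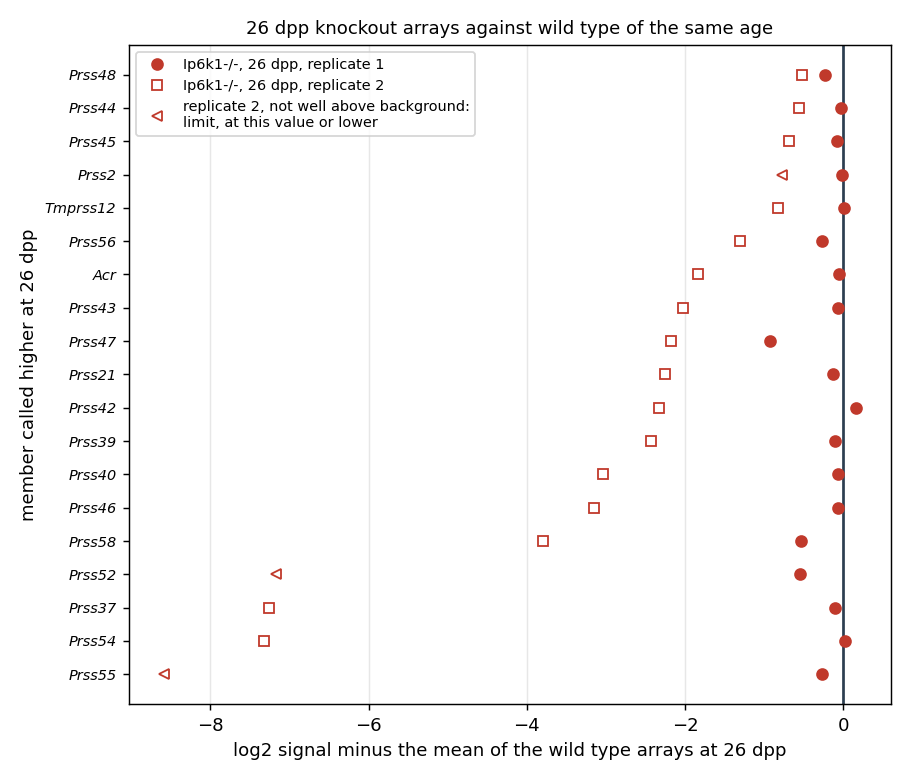
The horizontal axis gives the log2 signal of each knockout array at 26 dpp minus the mean of the wild type arrays of that age, for the 19 risers. Filled circles, replicate 1, lie between -0.93 and 0.16, and open squares, replicate 2, between -7.32 for Prss54 and -0.52 for Prss48; the 3 triangles are limits for genes not well above background on replicate 2.

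The wild type arrays at 26 dpp also differed for some of these genes. Replicate 2 was above replicate 1 by more than 1 log2 unit for 5 of the 35 members, against 4.01% of all genes. These were Prss52 (by 2.46), Prss37 (2.25), Prss58 (2.14), Prss51 (2.11) and Prss55 (1.78), and knockout replicate 1 lay between the wild type arrays for each. For Acr the wild type arrays differed by 0.40, for Tmprss12 by 0.01 and for Prss39 by 0.22. At 17 dpp the knockout arrays differed too: replicate 2 was above replicate 1 by more than 1 for 12 of 35, against 6.81% of all genes, including Tmprss12 (by 2.47), Prss45 (2.36), Prss43 (2.20), Prss44 (2.14), Prss46 (1.84) and Acr (1.66). Of these 12, Prss39, Prss58 and Prss2 were well above background on no 17 dpp array, and Prss43 on knockout replicate 2 only. Their gaps rest in part on dim signals. The pachytene marker median was -0.73 on knockout replicate 1 and 2.60 on knockout replicate 2 at 17 dpp, against 1.02 and 1.76 in wild type testes. The part of this in the members' spread was not tested.

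Knockout was then set against wild type at each age. At 26 dpp no member passed by limma, in either direction, against 0% of all genes called higher and 0.00752% called lower; 1 member, Prss47, had an unadjusted p under 0.05, as did 2.46% of all genes. Prss47 differed by -1.55 ± 0.47 (SE, unadjusted p = 0.0164, adjusted p = 0.535), and by -0.93 without knockout replicate 2. The median over the members was -0.41, against 0.08 over all genes, and without that array -0.07 against -0.03. The sizes that led the full comparison were -5.47 ± 3.04 for Prss55, -4.90 ± 2.61 for Prss52, -3.68 ± 2.20 for Prss37 and -3.65 ± 2.23 for Prss54 (SE, limma adjusted p = 0.535 for each). Prss55 and Prss52 were well above background on 1 of the 2 knockout arrays, so that their sizes rest in part on a signal that was not. Without knockout replicate 2 the sizes of the 4 genes were -0.27, -0.55, -0.10 and 0.02, and 34 of the 35 members then differed by less than 1. The exception was Prss22 at -1.52. Of the 26 dpp arrays left in that fit, Prss22 was well above background on wild type replicate 2 only, so its size rests in part on signals that were not. No member passed in that fit either, against 0.0113% of all genes called higher and 0.0263% called lower. Where knockout replicate 1 was left out instead, 5 members were called higher and 12 lower, against 26.8% and 18.3% of all genes.

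Groups that do not overlap were counted as a description. At 26 dpp both knockout arrays were below both wild type arrays for 10 members (Prss21, Prss29, Prss39, Prss40, Prss44, Prss45, Prss46, Prss47, Prss48 and Prss56), against 17% of all genes, and above them for 4 (Prss12, Prss33, Prss38 and Prss50), against 15.3%. For the 10 lower members, replicate 1 lay between 0.03 (Prss44) and 0.93 (Prss47) below the wild type mean. Prss12 differed by 0.67 ± 0.31 (SE, limma adjusted p = 0.535). Prss29 differed by -0.57 and was well above background on none of the 4 arrays, so that no fold is given.

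At 17 dpp no member passed by limma, against 0.00376% of all genes called higher and 0.0865% called lower; Prss8 alone among the members had an unadjusted p under 0.05, as did 1.44% of all genes. Prss8 was 1.00 ± 0.33 lower in knockout testes on the log2 scale (SE, unadjusted p = 0.0223, adjusted p = 1). Both knockout arrays lay below both wild type arrays. The epididymis markers differed in the same direction on these arrays, with 4 of 8 called lower in knockout (Crisp1, Adam7, Rnase9 and Defb2) and a median difference of -7.93, and their part in the Prss8 difference was not tested. Knockout arrays lay above wild type without overlap for 10 members (Prss22, Prss28, Prss29, Prss34, Prss35, Prss40, Prss42, Prss47, Prss52 and Prss55), against 16% of all genes, and below for 2 (Prss53 and Prss8), against 12.8%. Of these, Prss40, Prss47, Prss52 and Prss55 were well above background on none of the arrays of that age. Prss29 was -6.74 and -6.95 in knockout testes and -6.44 and -6.10 in wild type testes at 26 dpp, and -5.43 and -5.35 in knockout testes and -5.86 and -5.79 in wild type testes at 17 dpp. Prss28 was -3.26 and -2.37 in knockout testes and -3.13 and -2.97 in wild type testes at 26 dpp, with overlap, and -2.49 and -2.76 in knockout testes and -3.21 and -2.82 in wild type testes at 17 dpp, with none. Prss35 differed by 0.63 ± 0.41 (SE) and Prss28 by 0.39 ± 0.36 (SE), each with a limma adjusted p of 1.

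**Figure D4:**
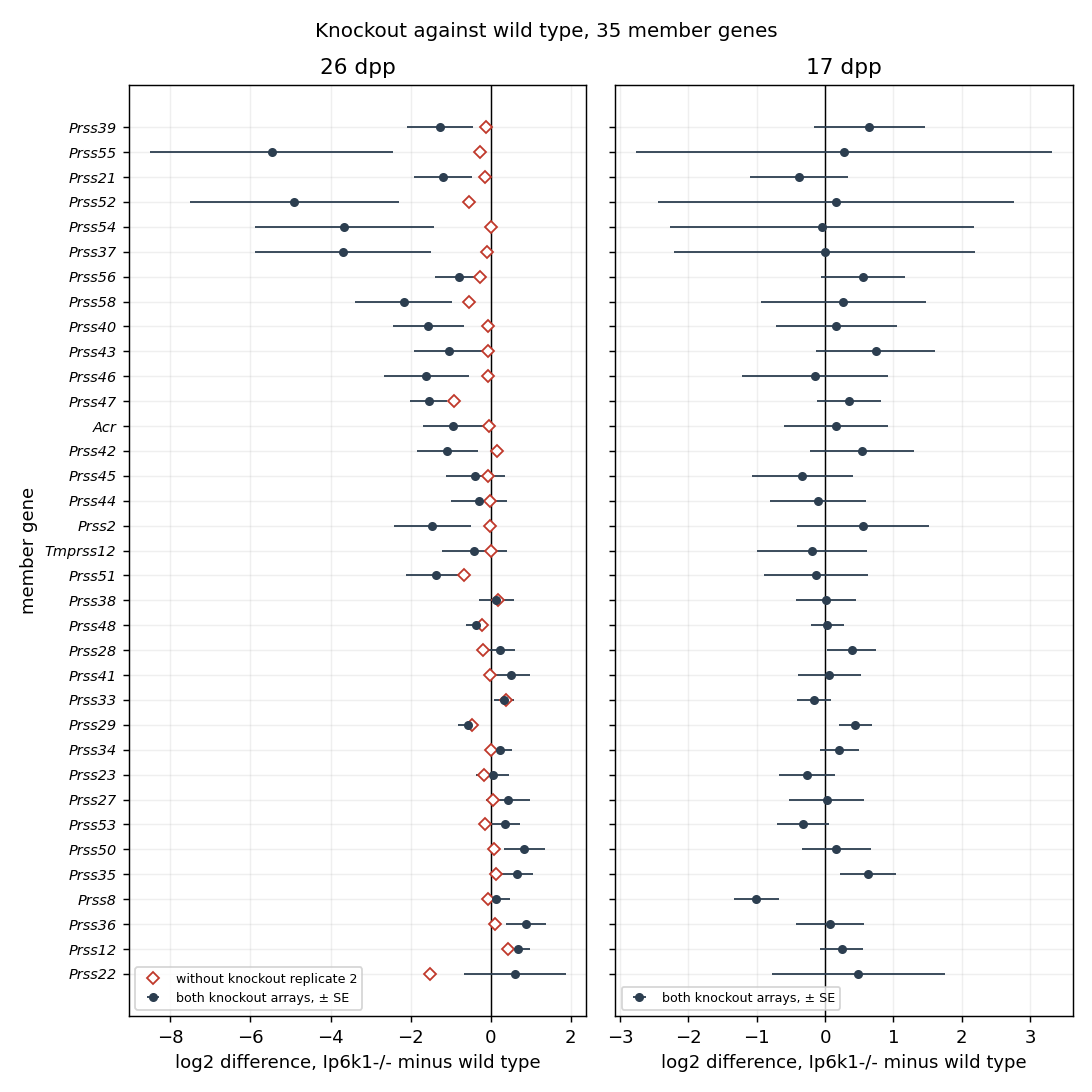
Points give the log2 difference between Ip6k1-/- and wild type testes with its SE, at 26 dpp on the left and at 17 dpp on the right, for 35 members ordered by their wild type age difference; the panels have different horizontal scales. Open diamonds at 26 dpp leave out knockout replicate 2, and 34 of 35 then lie between -1 and 1.

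The knockout difference was also compared between the ages. No member passed by limma, and neither did any of the 26586 genes (0% in either direction), with an unadjusted p under 0.05 for 3 members and 1.9% of all genes.

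Genes that act beside these proteases were taken from hand-written lists, with the same limma test. Of 20 acrosome genes that are not proteases, 18 rose and 0 fell at 26 against 17 dpp in wild type testes, with a median difference of 6.51. Over all genes in this contrast 18.9% were called higher and 26.1% lower. Spaca3, an acrosomal lysozyme-like protein, rose at least 1670-fold (limma adjusted p = 0.0168) and Tmem190 at least 1130-fold (adjusted p = 0.0166). Actl7a rose at least 836-fold (limma adjusted p = 0.0192) and Acrv1 at least 564-fold (adjusted p = 0.0307). None of these genes was well above background on a 17 dpp array, so they passed the detection filter only through a 26 dpp group. Of 15 genes for ADAM3 maturation and sperm migration, the process in which Prss37, Prss55 and Tmprss12 are known to act, 9 rose and 0 fell, with a median of 4.96. Adam3 rose by 10.69 ± 1.99 on the log2 scale (SE, limma adjusted p = 0.0138); Cmtm2b rose too (adjusted p = 0.0074), but was well above background on 1 of the 2 wild type arrays at 17 dpp. Adam3 was 6.60 and 4.85 in knockout testes and 6.77 and 6.98 in wild type testes at 26 dpp, against -7.01 and -0.79 in knockout testes and -5.00 and -2.64 in wild type testes at 17 dpp. Pdilt, a testis chaperone needed to fold ADAM3, rose by 8.55 ± 2.33 (SE, adjusted p = 0.0324), and Adam1b by 8.37 ± 1.75 (SE, adjusted p = 0.0177).

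Of 9 measurable serine protease inhibitors, 1 rose and 4 fell in wild type. Spink2, the acrosin inhibitor of mouse spermatids, rose by 6.81 ± 1.27 on the log2 scale (SE, limma adjusted p = 0.0138), and was 7.13 and 6.08 in knockout testes and 7.32 and 7.34 in wild type testes at 26 dpp, against -1.63 and 2.24 in knockout testes and -0.31 and 1.36 in wild type testes at 17 dpp. Spink8 fell by 7.48 (limma adjusted p = 0.0106) and is on the epididymis list too. It read -2.75 and -6.13 in knockout testes and -1.72 and -2.90 in wild type testes at 26 dpp. At 17 dpp it read -6.72 and -6.28 in knockout testes and 4.16 and 6.19 in wild type testes. Serpine2 fell by 2.57 (adjusted p = 0.0176) and Spint1 by 2.08 (adjusted p = 0.0226). Of 8 measurable membrane serine proteases outside the set, Tmprss9 rose by 2.37 (limma adjusted p = 0.0108). Hpn (hepsin) fell by 3.26 (limma adjusted p = 0.0232), St14 (matriptase) by 2.85 (adjusted p = 0.0204) and Tmprss13 by 2.67 (adjusted p = 0.0205). At 17 dpp Hpn read -3.28 and -4.20 in knockout testes and -2.77 and -0.74 in wild type testes. St14 read -2.86 and -3.92 in knockout testes and -2.48 and -1.20 in wild type testes at that age. Those wild type arrays carried epididymal transcripts, and the part of these in the Spink8, Hpn and St14 falls was not tested. In neither knockout comparison did any gene of these 4 lists pass at an adjusted p under 0.05 with all arrays; without knockout replicate 2 at 26 dpp, Spink8 was called lower in knockout at 17 dpp (adjusted p = 0.0305, and 0.0658 with all arrays). The median knockout difference at 26 dpp was -2.10 for the acrosome list and -1.04 for the ADAM3 list, and -0.09 and -0.13 without knockout replicate 2.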

How the data were processed

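Testis RNA was labelled with Cy3 and hybridised to 1-colour Agilent arrays, per the labels' protocols, all on 1 slide and in 1 scan, per the file headers. Spots were read with Agilent Feature Extraction 11.5.1.1, and the processed signal is an intensity on a linear scale, corrected for background and spatial trend but deposited without scaling between arrays. Other deposited columns hold flags per spot. The authors' value table holds log2 values whose scale, centring and direction are stated nowhere. Each column followed log2 of that array's processed signal less its 75th percentile with a correlation of 0.999906 to 0.999946. A correlation does not fix scale or centring. By the median over probes, the authors' values lay higher than that measure on every array. The offset ran from 0.128 (wild type replicate 1, 26 dpp) to 0.217 (knockout replicate 1, 17 dpp). The authors' column medians were -3.62 and -3.84 (knockout, 26 dpp), -3.59 and -3.64 (wild type, 26 dpp), -3.67 and -3.63 (knockout, 17 dpp) and -3.69 and -3.69 (wild type, 17 dpp). How their table combined spots of a probe is not known.

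Spots marked as outliers, 103 to 200 on each array, were dropped, saturated spots numbered 0, spots of a probe were averaged, and log2 of the processed signal less each array's 75th percentile (470 to 692 signal units) was used. Probes well above background on both replicates of 1 or more groups were kept, 37810 in all; the brightest kept probe stood for its gene, and genes were named by file name, updated through RefSeq where an accession or symbol matched. Between 58.8% and 64.7% of probes per array were well above background. One mean per group was fitted over the 8 arrays with limma 3.58.1 (R 4.3.3), with Benjamini-Hochberg adjustment across 26586 genes. With 2 arrays per group the precision is limited by their number. The fit was tested on simulated data. Figures were drawn with matplotlib 3.10.9.

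The members and the gene lists were chosen with earlier results of these data known. Genes given array by array were Acr, Tmprss12, Prss21, Prss37, Prss50 and Prss55, the 10 further members with the largest called wild type age difference and the 4 with the smallest p in each knockout comparison; Prss51 was added after its values were seen. Lists of markers were also read for spermatogonia, Sertoli cells, Leydig cells, macrophages and red blood cells. Alternatives were another background correction, normalization, filter, probe rule, variance model, array weights, a replicate block, the compared arrays alone, each array left out and the authors' table.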

Additional observations from a re-analysis of the deposited data

How the results depend on the processing

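In the wild type age comparison 24 members were called. This count stayed between 22 and 31 under normexp background correction with either scaling, quantile normalization, no filter, every kept probe on its own, a variance trend, array weights, the compared arrays alone (29) and the authors' value table (24). It was 14 where only probes well above background on all arrays were tested, since that left 20 members, and 0 to 28 with 1 array left out. In the knockout age comparison 14 members were called. The count was 10 to 14 under the normalizations, the absent filter, the probe rule, the variance trend and the authors' table, 8 when every array had to be well above background, 2 with array weights, 0 with the compared arrays alone and 0 to 27 with 1 array left out. Knockout against wild type gave 0 members at 17 dpp under every alternative run. At 26 dpp, and for the change of the knockout difference with age, it gave 0 under all but 1: with knockout replicate 1 at 26 dpp left out the counts were 17 and 14, so that these ranged from 0 to 17 and from 0 to 14. Where a setting leaves 1 array in a group, that array is assumed to vary like the others. The causes of these shifts were not tested beyond the number of genes or arrays a setting removes. These counts stand here without the shares over all genes, so they describe the settings and not the members in particular.

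The replicate numbers recur in each group. Correlations between groups of the deviations of same-numbered arrays ran from -0.4 to 0.11. The lowest was between wild type and knockout at the older age, where the outlying knockout array enters. The highest was between wild type and knockout at the younger age. With so few arrays per group these values cannot decide whether same-numbered arrays share more than a number. A shared litter or handling was not tested. With a replicate block 22 members were called in the wild type age comparison, 5 in the knockout age comparison and 0 in each of the other 3. Shares over all genes in that fit are not given here.

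Of the single genes, Prss29 at 26 dpp turned to 0.0734 with normexp and the 75th percentile, and Tmprss12 at 26 dpp to 0.08 on its second probe. With 1 array left out, the knockout difference of Tmprss12 at 26 dpp ranged from -0.832 to 0.0143, and the knockout age difference of Prss37 from -0.156 to 7.01. The members' median wild type age difference, 2.97 as reported, was 1.13 after normexp plus quantile normalization, 1.1 after normexp plus the 75th percentile, 1.12 with no filter and -0.11 for probes well above background on all arrays; the median of all genes moved by more than 0.1 from -0.46 under normexp and quantile normalization (-0.27) and with no filter (-0.22). Signals near background set how far the dim members can be resolved at 17 dpp.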

Other observations

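Markers that the members' account did not use differed in the same age contrast. In wild type testes 7 of 8 Sertoli markers and 4 of 8 spermatogonial markers were lower at 26 than at 17 dpp by limma (adjusted p under 0.05), with median differences of -1.79 and -2.06, and 1 of 6 measurable Leydig markers was higher. On knockout replicate 2 at 26 dpp the Leydig median was -3.70, against -1.16 on replicate 1 and -0.27 and -1.01 in wild type testes of that age. None of 7 macrophage markers and 1 of 3 red blood cell markers was called in that contrast.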
